A study of Mus musculus with 48 samples.

Results

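Mitochondrially encoded transcripts were taken as every gene that the deposited count tables place on chrM, the mitochondrial chromosome. The rule gives 37 of the 54752 genes listed: 13 messenger RNA (mRNA) genes, 2 ribosomal RNA (rRNA) genes and 22 transfer RNA (tRNA) genes. The tables put 28 of them on the plus strand and 9 on the minus strand, which holds mt-Nd6 and 8 tRNA genes. They were followed in 48 libraries of newly made RNA from mouse embryonic stem cells (ESCs), labelled with the uridine analogue 4-thiouridine for 30 min in cycling cells and 15 min in synchronized cells. The libraries form 24 groups of 2. Cycling FOXD3-iKO cells, in which 4-hydroxytamoxifen (4HT) depletes FOXD3, were collected after 8, 14, 24 and 32 h of 4HT or of the solvent EtOH (ethanol), 16 libraries in all. Cycling OCT4-tetOff cells, which lose OCT4 when doxycycline (DOX) is added, were collected after 16 and 24 h of DOX or H2O, 8 libraries in all. FOXD3-iKO cells under a double thymidine block were released 24 h after 4HT or EtOH and collected at 0, 1, 2, 3, 4 and 5 h of release, 24 libraries in all. All cells grew in L2i medium. The labels name no clone, transgene promoter or untreated parental line, so the solvent libraries of the same line are the comparison in each experiment.

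The mitochondrial genome is a small circle transcribed from both of its strands by a dedicated polymerase, POLRMT, with the help of TFAM and TFB2M. Each strand gives long precursors that run through many genes, and enzymes then cut the tRNAs out of them, which frees the mRNAs and rRNAs that lie between. The mRNAs encode core subunits of respiratory complexes and of ATP synthase, and the rRNAs and tRNAs serve the ribosomes inside the organelle. In the tables' orientation the rRNA genes come first on the plus strand after the control region, where transcription starts, and the minus-strand transcript leaves the same region in the other direction and meets mt-Tp, mt-Te and mt-Nd6 first. Transcription of that strand also makes the primers for copying mitochondrial DNA.

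Total counts per library were 21827951 to 28805179 with 4HT and 22063823 to 30406124 with EtOH in cycling FOXD3-iKO cells. The ranges were 24620358 to 26112435 with DOX and 21113158 to 23804997 with H2O, and 7953841 to 15953054 with 4HT and 8093039 to 17936504 with EtOH in synchronized cells. Levels below are CPM, the count scaled to a common library size, after TMM scaling. The targeted genes were lower in the depleted libraries of each experiment. Foxd3 had 1.43 to 4.84 CPM with 4HT and 5.05 to 9.99 CPM with EtOH in cycling cells, and 1.17 to 2.19 CPM with 4HT and 3.89 to 8.23 CPM with EtOH in synchronized cells. Pou5f1, which encodes OCT4, had 46.2 to 79.6 CPM with DOX and 176 to 226 CPM with H2O. Foxd3 was lower with DOX as well, with 1.88 to 9.48 CPM, against 20.2 to 36.4 CPM with H2O. Of 8 ESC markers 7 had counts in every library and Sox2 was listed at 0 in all of them. The summed ESC markers, Pou5f1 among them, had 734 to 1182 CPM with DOX, 1974 to 2201 CPM with H2O and 1816 to 2973 CPM over the FOXD3-iKO libraries, and the 7 fibroblast markers summed to at most 6.56 CPM in any library.

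The mRNA genes held nearly all chrM counts, and what remained was small and uneven. They took at least 98.97% of chrM counts in every library, against 0.0143 to 0.527% for the 2 rRNA genes and 0.211 to 0.982% for the 22 tRNA genes. In cycling cells 7 mRNA genes passed the filter on low counts and carried this signal. They were mt-Nd1, mt-Nd2, mt-Nd4, mt-Nd5 and mt-Nd6, which encode subunits of complex I, mt-Cytb, which encodes cytochrome b of complex III, and mt-Co1, which encodes a catalytic subunit of cytochrome c oxidase. Between mt-Co1 and mt-Nd4 lies a run of 11 neighbouring members, from mt-Ts1 to mt-Nd4l (bases 6870 to 10173 of chrM in mm10), that were listed at 0 in all 24 cycling libraries. The run holds the mRNA genes mt-Co2, mt-Atp8, mt-Atp6, mt-Co3, mt-Nd3 and mt-Nd4l and 5 tRNA genes, and in the synchronized libraries its highest count was 107, in mt-Co2. The mouse nuclear genome is known to carry a near-copy of this stretch on chromosome 1 (24611535 to 24616197, minus strand), covered by 6 genes with provisional names. Their lengths lie next to those of the members: Gm28437 is 783 bases long and mt-Co3 784, Gm28661 is 681 bases long and mt-Co2 684, Gm28438 is 345 bases long and mt-Nd3 348, and Gm10925 is 678 bases long and mt-Atp6 681. RefSeq lists Atp6 and mt-Atp6 among the synonyms of Gm10925. In the cycling libraries 5 of the 6 had at most 6 counts in a library, while Gm28438 had up to 145. In the synchronized libraries, where the run itself had counts, the 6 genes had at most 51. No source used here says how reads with several matches were counted, so the 11 members are listed at 0 rather than shown to be silent, and the values of mt-Co1 and mt-Nd4, which border the run, are uncertain.

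**Figure D1:**
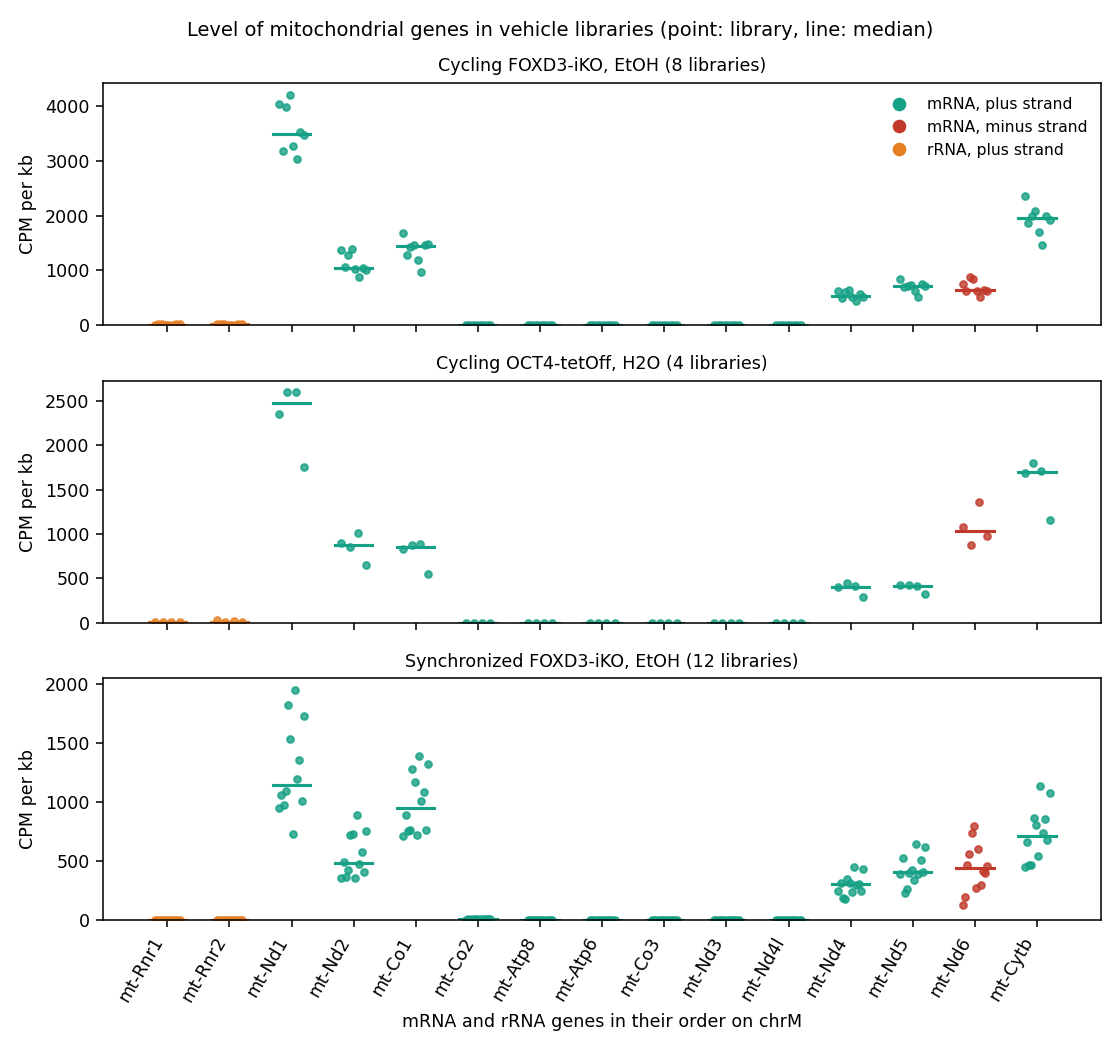
Level per kb of gene length (CPM per kb, linear axis from 0) of the 15 mRNA and rRNA genes, in their order on chrM, in the EtOH or H2O libraries of each experiment. Points are libraries, lines are medians and colour gives class and strand. mt-Nd1 has the highest median in each panel, the genes from mt-Co2 to mt-Nd4l lie at or near 0, and the rRNA genes lie far below the mRNA genes on both sides.

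Per kb of gene length, a rough scale for genes of different length, mt-Nd1 (bases 2751 to 3707, plus strand) had the highest median in all 3 experiments. In cycling FOXD3-iKO cells its median was 3322 CPM per kb with 4HT and 3497 CPM per kb with EtOH. With EtOH it was followed by mt-Cytb at 1955 CPM per kb (1458 to 2350 over 8 libraries) and mt-Co1 at 1445 CPM per kb (964 to 1679). mt-Nd2 came next at 1049 CPM per kb (880 to 1391), then mt-Nd5 at 716 CPM per kb (511 to 841), mt-Nd6 at 637 CPM per kb (515 to 872) and mt-Nd4 at 534 CPM per kb (441 to 642). mt-Nd1, at 3039 to 4213 CPM per kb, stood clear of all others, and each of the remaining neighbours in this order overlapped the next, with the exception of mt-Nd2 and mt-Nd5. With H2O in OCT4-tetOff cells the order was mt-Nd1 at 2476, mt-Cytb at 1698, mt-Nd6 at 1030, mt-Nd2 at 874, mt-Co1 at 857, mt-Nd5 at 415 and mt-Nd4 at 403 CPM per kb. With EtOH in synchronized cells mt-Nd1 had a median of 1143 CPM per kb, mt-Co1 950, mt-Cytb 709, mt-Nd2 483, mt-Nd6 439, mt-Nd5 406 and mt-Nd4 303 CPM per kb. The tables were normalized apart, so levels set across them are descriptions only.

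The rRNA genes, which lie nearest the start of plus-strand transcription and are known as abundant RNAs of the organelle, had some of the lowest levels per kb among the members read. mt-Rnr1 (12S rRNA, bases 70 to 1024) had a median of 6.67 CPM per kb with 4HT and 7.93 CPM per kb with EtOH in cycling cells. mt-Rnr2 (16S rRNA, bases 1094 to 2675) had 10.3 CPM per kb with 4HT and 13.9 CPM per kb with EtOH. In synchronized cells both were near the counting limit: mt-Rnr1 had at most 55 counts and mt-Rnr2 at most 84 in a library. Whether rRNA was removed before sequencing is not stated in the labels beyond the name of the library kit, so rRNA levels here describe the libraries. Gm26917 and Gm42418, nuclear genes that collect reads of cytosolic rRNA, took 3.41 to 43.05% of counts. In cycling FOXD3-iKO cells the rRNA to mRNA ratio was lower at later times in both arms, a difference that was not tested. It averaged 3.32, 2.79, 1.32 and 0.478 rRNA counts per 1000 mRNA counts at 8, 14, 24 and 32 h of 4HT, and 3.70, 3.72, 1.71 and 0.527 at the same times of EtOH (n = 2 each). Library names of the 8 and 14 h samples carry a lane number and those of the 24 and 32 h samples do not. Between the earlier and the later pair of times, time and library series thus cannot be told apart. The lane number does not separate 24 h from 32 h, and the ratio was lower at 32 h in both arms.

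Among the tRNA genes mt-Tt and mt-Ti on the plus strand and mt-Tp on the minus strand had the highest median levels per kb in cycling cells. In FOXD3-iKO cells mt-Tt, the tRNA for threonine, had a median of 114 CPM per kb with 4HT and 103 CPM per kb with EtOH. mt-Ti, the tRNA for isoleucine, had 83.0 CPM per kb with 4HT and 84.3 CPM per kb with EtOH, and mt-Tp, the tRNA for proline, had 69.2 CPM per kb with 4HT and 66.9 CPM per kb with EtOH. The 3 ranges over libraries overlapped. In synchronized cells with EtOH the order was another: mt-Tw, the tRNA for tryptophan, had a median of 109.0 CPM per kb and mt-Tp 108.8 CPM per kb, while mt-Tt had 23.6 CPM per kb. Plus-strand tRNA counts outnumbered minus-strand ones in all 24 cycling libraries. There were 31.3 to 49.1 minus-strand per 100 plus-strand tRNA counts with 4HT, 29.7 to 43.9 with EtOH, 37.0 to 63.6 with DOX and 43.2 to 55.2 with H2O. The single minus-strand mRNA, mt-Nd6, had 2.85 to 3.94 counts per 100 plus-strand mRNA counts with 4HT and 2.95 to 3.85 with EtOH. In OCT4-tetOff cells it had 6.64 to 9.53 per 100 with DOX and 5.56 to 9.21 with H2O. Besides the 11 members of the run, the tRNA genes mt-Tf, mt-Ty and mt-Th were listed at 0 in every cycling library, which makes 14 members in all. A count of 0 allows up to 0.0987 to 0.142 CPM in these libraries (3 counts, counting error only). In the synchronized libraries 5 tRNA genes were listed at 0 throughout, with limits of 0.167 to 0.377 CPM.

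Loss of FOXD3 in cycling cells was compared with EtOH at each time in a fit over the whole table. Of the 37 members 18 passed the filter on low counts. No member was called at 8, 14, 24 or 32 h (0 of 18 at each time, edgeR adjusted p under 0.05), where 0.0107%, 0.016%, 0.481% and 9.47% of all genes tested were called. DESeq2 also called 0 members at each time. At an unadjusted p under 0.05 the counts were 0, 0, 4 and 0, and all 4 at 24 h were lower with 4HT: mt-Nd6, mt-Nd5, mt-Nd4 and mt-Rnr1.

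At 24 h the plus-strand mRNAs lay close together. mt-Nd1 had 3101 and 3366 CPM with 4HT, against 3809 and 4031 CPM with EtOH, a difference of -0.28 ± 0.16 (SE) on the log2 scale and an edgeR adjusted p of 0.71. mt-Cytb had 1776 and 1958 CPM with 4HT, against 2270 and 2385 CPM with EtOH. For mt-Nd6 the values were 370 and 371 CPM with 4HT, against 453 and 433 CPM with EtOH, a difference of -0.26 ± 0.11 on the log2 scale and an edgeR adjusted p of 0.53. In these 3 genes both 4HT libraries lay below both EtOH libraries, and none of the 3 was called. The share of all genes tested that separate in this way was not counted, so nothing is read from the separation. The median log2 fold change of the 18 members was -0.30 at 24 h, beside -0.02 over all genes tested, and at 32 h it was -0.10, beside -0.05. With total counts in place of TMM scaling the 32 h medians moved to 0.07 for the members, beside 0.12 over all genes tested. At 32 h mt-Nd1 had 2608 and 2635 CPM with 4HT, against 3138 and 2908 CPM with EtOH, while mt-Nd5 had 1079 and 1077 CPM with 4HT, against 1126 and 932 CPM with EtOH, so the groups overlapped for mt-Nd5. The 4HT response of the members was not called as different between the 4 times (0 of 18 with edgeR and 0 with DESeq2, 0 at an unadjusted p under 0.05, with 0.454% of genes called). chrM genes took 0.938 to 1.36% of counts with 4HT (median 1.02%) and 0.870 to 1.47% with EtOH (median 1.12%). The mean log2 difference of -0.07 gave p = 0.41 in an exact two-sided permutation test that exchanges treatment labels within each time (n = 8 each).

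**Figure D2:**
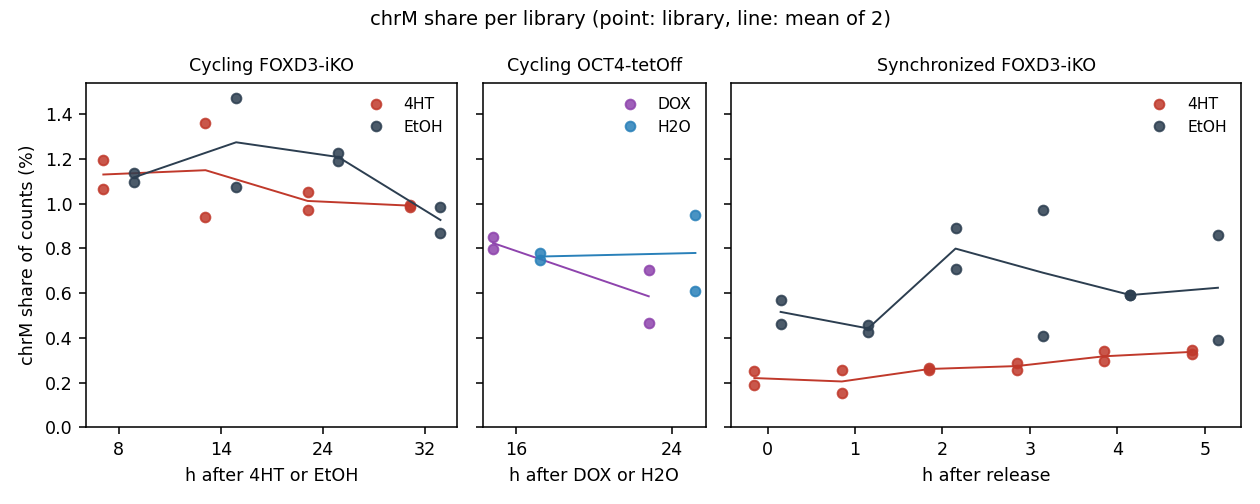
Share of all counts that fell on chrM genes (%, linear axis from 0) in each library, by time in h and treatment. Points are libraries and lines join the means of 2, and times are evenly spaced. The shares of 4HT and EtOH libraries overlap in cycling FOXD3-iKO cells, those of DOX and H2O overlap, and in synchronized cells every 4HT library lies below every EtOH library.

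Loss of OCT4 was compared with H2O in the same way, with 20 of the 37 members tested. At 16 h no member was called (0 of 20 with edgeR and 0 with DESeq2, 0 at an unadjusted p under 0.05), where 16.9% of all genes tested were called. mt-Nd1 had 2350 and 2230 CPM with DOX at 16 h, against 2255 and 2487 CPM with H2O. With total counts in place of TMM scaling the median of all genes at 16 h moved to 0.15 and that of the members to 0.19, and 0 members were called. At 24 h 7 of 20 members fell and none rose, where 18.7% of all genes tested fell and 36.9% were called in either direction. The 7 were both rRNAs, the mRNAs mt-Nd1 and mt-Nd6 and the tRNAs mt-Tw, mt-Tq and mt-Ta, 4 of them on the plus strand and 3 on the minus strand. DESeq2 called 6 members, without mt-Tq (DESeq2 adjusted p = 0.087) and mt-Ta (DESeq2 adjusted p = 0.10). mt-Ta had 2 and 5 counts with DOX, against 19 and 6 with H2O. The median log2 fold change of the 20 members was -0.71, beside -0.01 over all genes tested. The filter asks for 0.413 CPM in at least 2 libraries, and mt-Tl1 and mt-Tn passed it through the H2O libraries alone. This leaves them room only to be lower with DOX, and both enter the median. mt-Ta, mt-Tc and mt-Te each reached this level in 1 library of each arm. Of the 15 members that pass on the DOX libraries alone and on the H2O libraries alone 6 fell. They were 2 of 7 mRNAs, both rRNAs and 2 of 6 tRNAs. By strand 4 of 12 fell on the plus strand and 2 of 3 on the minus strand. In bulk samples fewer cells of a type and less RNA per cell cannot be told apart.

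The rRNAs had larger fold changes than any mRNA at 24 h. mt-Rnr2 had 3.98 and 3.32 CPM with DOX at 24 h, against 27.9 and 11.9 CPM with H2O, which is -2.45 ± 0.69 in log2 (edgeR adjusted p = 0.021). mt-Rnr1 had 1.82 and 1.14 CPM with DOX, against 5.53 and 2.81 CPM with H2O, which is -1.50 ± 0.39 in log2 (edgeR adjusted p = 0.014). Both DOX libraries lay below both H2O libraries for each rRNA, and the H2O libraries differed from each other by more than the DOX libraries did. How many of all genes tested separate in this way was not counted. For mt-Nd6 the values were 438 and 389 CPM with DOX, against 708 and 507 CPM with H2O, which is -0.55 ± 0.18 in log2 (edgeR adjusted p = 0.035). mt-Nd1 had 1571 and 1115 CPM with DOX, against 2485 and 1684 CPM with H2O (-0.63 ± 0.21, edgeR adjusted p = 0.043). The other plus-strand mRNAs were not called: mt-Co1 had 849 and 584 CPM with DOX, against 1366 and 840 CPM with H2O (-0.62 ± 0.23, edgeR adjusted p = 0.063). mt-Nd5 had 679 and 521 CPM with DOX, against 748 and 588 CPM with H2O (-0.16 ± 0.16, edgeR adjusted p = 0.47). For both the groups overlapped.

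Single libraries decided the calls at 24 h. Without H2O replicate 1, the library with the highest chrM share of the 8, 0 members were called, and without DOX replicate 2, the one with the lowest, 1 was called. Without DOX replicate 1 or without H2O replicate 2 the count was 12. With only the 4 libraries of 24 h in the fit it was 2. The chrM share of counts was 0.796 and 0.852% at 16 h and 0.705 and 0.466% at 24 h with DOX, against 0.779 and 0.748% at 16 h and 0.951 and 0.608% at 24 h with H2O. The groups overlapped at 24 h, and the mean log2 difference over both times was -0.15 with p = 0.67 (exact two-sided permutation test, n = 4 each, smallest p possible 0.056). The rRNA to mRNA ratio had a median of 1.14 per 1000 with DOX and 3.11 per 1000 with H2O, a mean log2 difference of -1.11 with p = 0.11 in the same exact test. The response at 24 h was not called as different from that at 16 h for any member (0 of 20 with edgeR and 0 with DESeq2, with 0% of genes called). At an unadjusted p under 0.05 there were 5, all lower, among them mt-Nd6 with a difference of -0.67 ± 0.25 on the log2 scale. Markers of other cell types were higher with DOX. Over both times the 5 trophectoderm markers summed to 43.3 to 83.7 CPM with DOX and 17.1 to 23.1 CPM with H2O, and the 5 primitive endoderm markers to 24.4 to 57.8 CPM with DOX and 8.57 to 12.9 CPM with H2O. Their part in the chrM results was not tested.

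The FOXD3 response and the OCT4 response at 24 h were also set against each other, with the 8 libraries collected at that time fitted jointly as the difference of the 2 treatment effects. Foxd3 had 2.85 and 1.88 CPM with DOX at 24 h, against 21.2 and 20.2 CPM with H2O, so the OCT4 response includes a fall of Foxd3 RNA. None of the 18 members tested was called (0 with edgeR and 0 with DESeq2), where 16.5% of all genes tested were called. At an unadjusted p under 0.05 there were 3 members, all with a higher value for FOXD3: mt-Rnr2 whose log2 difference was 2.01 ± 0.63 (edgeR adjusted p = 0.054), and the tRNAs mt-Ta and mt-Tn. Leaving out 1 library gave 3 calls without H2O replicate 2, 1 call without EtOH replicate 1 or either DOX replicate, and 0 otherwise.

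In synchronized cells the members were lower with 4HT as a body. Over the 6 release times 19 of 21 members tested fell and none rose, where 18.4% of all genes tested fell and 37% were called in either direction. The 19 were the 11 mRNAs tested, both rRNAs and 6 of 8 tRNAs, with 15 of 16 on the plus strand and 4 of 5 on the minus strand. The median log2 fold change of the 21 members was -1.04, beside -0.01 over all genes tested. With total counts in place of TMM scaling the median of all genes moved to -0.21 and that of the members to -1.26. DESeq2 called 19 members. mt-Co2, mt-Atp6, mt-Co3 and mt-Nd4l, members of the run listed at 0 in cycling cells, are among these 11 mRNAs. They had at most 107 counts in a library. The filter asks for 0.779 CPM in at least 2 libraries, and mt-Co3, mt-Nd4l and the tRNA mt-Ti passed it through the EtOH libraries alone, which leaves them room only to be lower with 4HT. They lie on the plus strand and enter the counts, the strand split and the medians above. Of the 18 members that pass on the 4HT libraries alone and on the EtOH libraries alone 16 fell: 9 of 9 mRNAs, both rRNAs and 5 of 7 tRNAs. By strand 12 of 13 of these members fell on the plus strand and 4 of 5 on the minus strand. With 4HT each rRNA reached the filter's level in 2 of 12 libraries and mt-Atp6 in 3, so these stand near the same limit.

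The 7 mRNAs with the most counts fell by 0.83 to 1.24 on the log2 scale. mt-Cytb (bases 14145 to 15288, plus strand) had 186 CPM at the lowest, 405 CPM at the median and 576 CPM at the highest over the 12 libraries with 4HT, against 517, 811 and 1299 CPM with EtOH, which is -1.07 ± 0.12 in log2 (edgeR adjusted p = 1.2e-06). mt-Nd1 ran from 331 to 750 CPM with 4HT (median 610), against 695 to 1864 CPM with EtOH (median 1094), a log2 fold change of -1.04 ± 0.13. mt-Nd2 ran from 115 to 307 CPM with 4HT (median 260), against 367 to 924 CPM with EtOH (median 501), a log2 fold change of -1.24 ± 0.14. For mt-Co1 the values were 533 to 1071 CPM with 4HT (median 878), against 1100 to 2146 CPM with EtOH (median 1468), a log2 fold change of -0.85 ± 0.11. mt-Nd5 ran from 153 to 601 CPM with 4HT (median 431), against 418 to 1176 CPM with EtOH (median 741), a log2 fold change of -0.87 ± 0.12. mt-Nd4 averaged 218 ± 61.3 CPM with 4HT and 410 ± 117 CPM with EtOH (SD, n = 12 each), a log2 fold change of -0.92 ± 0.13. In mt-Nd2 and mt-Co1 every 4HT library of any time lay below every EtOH library, and in mt-Cytb, mt-Nd1 and mt-Nd5 the ranges overlapped. How many of all genes tested separate in this way was not counted. The minus-strand mRNA mt-Nd6 fell by 0.83 ± 0.12 on the log2 scale, and the plus-strand mRNAs named above fell by 0.85 to 1.24. The median of all 10 plus-strand mRNAs tested was -1.05. It includes mt-Co3 and mt-Nd4l, which passed the filter through the EtOH libraries alone, so it is not set against mt-Nd6. At the single release times the log2 difference of mt-Nd1 lay between -1.37 (2 h) and -0.78 (4 h) and that of mt-Nd6 between -1.21 (2 h) and -0.37 (1 h). The strands were set against each other within each library: mt-Nd6 had 1.50 to 14.8 counts per 100 plus-strand mRNA counts with 4HT (median 3.88) and 1.69 to 7.37 with EtOH (median 3.86), a mean log2 difference of 0.14 with p = 0.23 (exact two-sided permutation test within times, n = 12 each). Taken over the tRNA genes of the 2 strands the difference was 0.48 with p = 0.045 in the same exact test. This alternative lies outside the 25 within-library tests adjusted together, and its p is unadjusted. It rests on 33 to 114 plus-strand and 15 to 124 minus-strand tRNA counts per library with 4HT. The highest ratio, 376 per 100 in replicate 2 of 4HT at 1 h, had 33 plus-strand counts.

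Both rRNAs and 6 of 8 tRNAs were called lower on few counts, and the calls of the rRNAs, near the filter's limit with 4HT, support nothing beyond their own values. mt-Rnr2 had 3 to 15 counts per library with 4HT, against 11 to 84 with EtOH, which is -1.58 ± 0.24 in log2 (edgeR adjusted p = 3.8e-05). mt-Rnr1 had 0 to 10 counts with 4HT, against 2 to 55 with EtOH (-1.32 ± 0.43, edgeR adjusted p = 0.020), and was not called without replicate 2 of 4HT at 2 h (edgeR adjusted p = 0.052). Relative to mRNA the rRNAs had a median of 0.353 per 1000 with 4HT and 0.460 per 1000 with EtOH. The mean log2 difference was -0.61 with p = 0.036 in the exact test. Adjusted over the 25 main within-library tests the exact test gave p = 0.099. Among the tRNAs mt-Tw, for tryptophan, had 1.03 to 5.11 CPM with 4HT, against 4.90 to 14.4 CPM with EtOH (-1.45 ± 0.20). mt-Tp had 0.680 to 7.99 CPM with 4HT, against 1.48 to 8.84 CPM with EtOH (-0.75 ± 0.12). The 2 tRNAs that were not called were mt-Te (-0.18 ± 0.23) and mt-Tt (-0.35 ± 0.18).

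chrM genes took 0.152 to 0.348% of counts with 4HT (median 0.262%) and 0.389 to 0.972% with EtOH (median 0.581%). The 4HT libraries lay below the EtOH libraries at 6 of 6 release times with no overlap, and the mean log2 difference was -1.15 with p = 4.3e-05, the smallest that the exact two-sided permutation test can give (n = 12 each, adjusted p = 0.0011 over the 25 tests). The 2 arms are also separate in the labels' library numbers, which run through all EtOH libraries before the first 4HT library, so treatment and library series cannot be told apart. Gm26917 and Gm42418 together took 5.48 to 21.1% of counts with 4HT (median 15.9%) and 3.41 to 25.4% with EtOH (median 9.49%). In chrM share the 2 EtOH libraries of a time differed most at 3 and 5 h. At 3 h the library with 25.4% on these 2 genes had a chrM share of 0.410% and that with 4.77% had 0.972%. At 5 h 24.4% went with 0.389% and 3.83% with 0.859%. At 4 h 12.3% went with 0.593% and 8.37% with 0.590%. A link between the 2 shares was not tested. With library sizes taken from nuclear genes outside these 2 genes 19 members were called. The 5 primitive endoderm markers summed to 70.8 to 118 CPM with 4HT and 49.4 to 97.5 CPM with EtOH, none of them at 0 throughout, and their part in the result was not tested. The size of the 4HT effect was not called as different between release times for any member (0 of 21 with edgeR and 0 with DESeq2, 1 at an unadjusted p under 0.05, with 0% of genes called). The difference between synchronized and cycling cells in the response to 4HT was not tested, since the experiments are in separate tables.

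**Figure D3:**
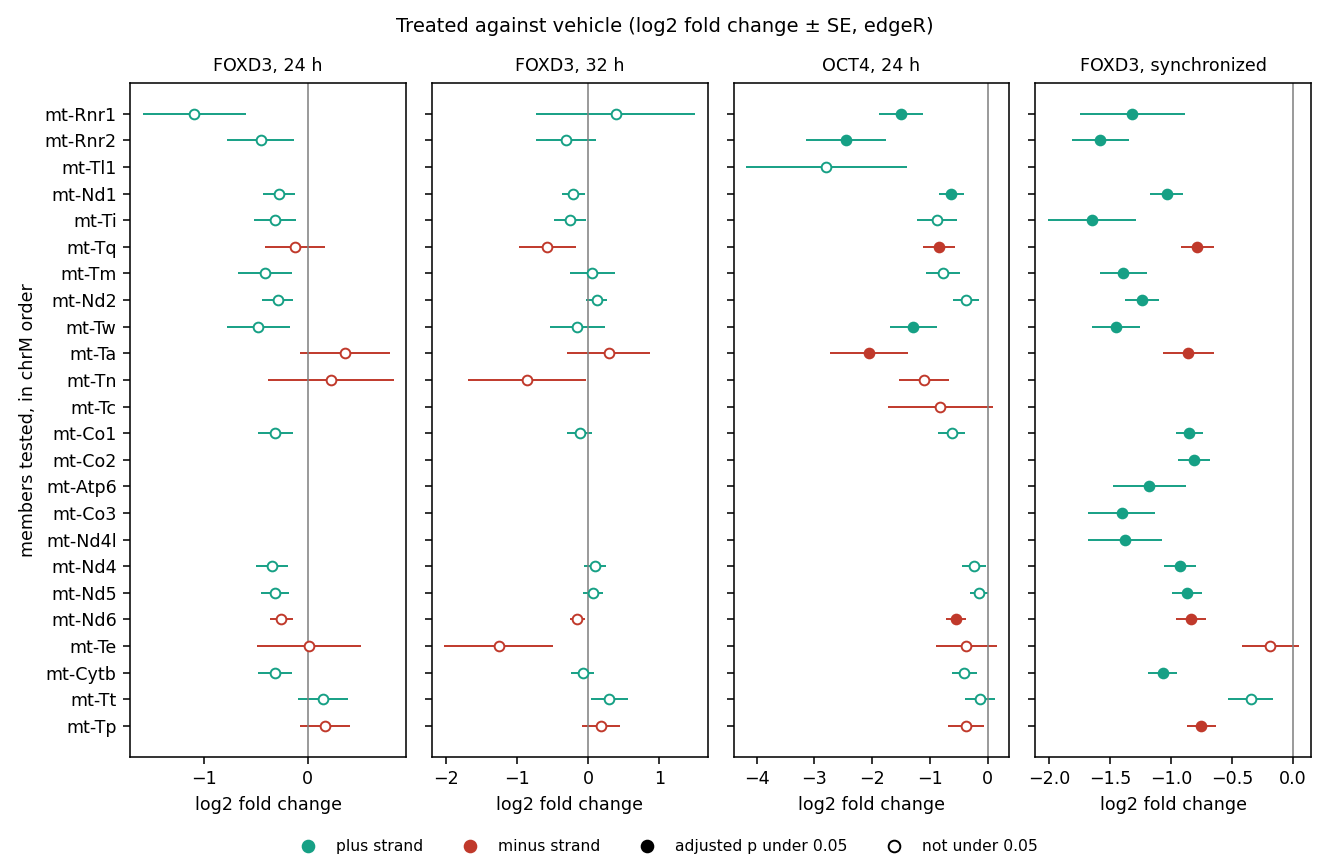
Log2 fold change of each member tested, treated against solvent, with SE from edgeR, in 4 comparisons, in chrM order from top to bottom. Filled points have an adjusted p under 0.05 and colour gives the strand. No point is filled for FOXD3-iKO at 24 or 32 h, 7 are filled and negative for OCT4-tetOff at 24 h and 19 are filled and negative in synchronized cells.

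After release from the thymidine block few members were called as changed, and their count is near the share of all genes called, so nothing is read from the count. With 4HT 3 of 21 members were called as changed over release, where 15.4% of all genes tested were called: mt-Nd6, mt-Te and mt-Tp, the 3 minus-strand genes nearest the control region. With EtOH 4 of 21 were called, where 19.4% of all genes tested were called: mt-Nd6 and mt-Tp again, and both rRNAs. None of the 10 plus-strand mRNAs tested was called in either arm. At an unadjusted p under 0.05 there were 6 members with 4HT and 8 with EtOH, and DESeq2 called 6 with 4HT and 5 with EtOH. With 4HT the count was 6 without replicate 1 at 1 h and 2 without replicate 1 at 0 h or replicate 2 at 1 h. With EtOH it was 10 without replicate 1 at 3 h, 8 without replicate 2 at 3 h and 2 without replicate 2 at 2 h.

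mt-Nd6 (bases 13552 to 14070), a complex I subunit gene, was lowest at 0 h in both arms. With 4HT it had 39.9 and 38.1 CPM at 0 h, 195 and 218 CPM at 1 h, 182 and 163 CPM at 2 h, 118 and 106 CPM at 3 h, 111 and 113 CPM at 4 h and 128 and 179 CPM at 5 h. With EtOH it had 66.5 and 104 CPM at 0 h, 244 and 289 CPM at 1 h, 382 and 415 CPM at 2 h, 144 and 313 CPM at 3 h, 156 and 215 CPM at 4 h and 207 and 240 CPM at 5 h. In both arms every later library lay above both 0 h libraries, with the peak at 1 h with 4HT and at 2 h with EtOH. Against 0 h the log2 change was 2.40 ± 0.29 at 1 h with 4HT and 2.22 ± 0.29 at 2 h with EtOH, and the test over all times gave edgeR adjusted p = 7.7e-04 with 4HT and 0.0014 with EtOH.

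mt-Tp (bases 15356 to 15422), the first gene met by the minus-strand transcript, was also lowest at 0 h in both arms. Its course was not tested against that of mt-Nd6, and with EtOH its 5 h level lay near its 1 h level. With 4HT it had 0.680 and 1.29 CPM at 0 h, 5.43 and 7.99 CPM at 1 h, and 2.48 and 3.97 CPM at 5 h. With EtOH it had 1.94 and 1.48 CPM at 0 h, 8.32 and 7.94 CPM at 1 h, and 6.53 and 8.45 CPM at 5 h. The counts behind these values were 8 and 10 at 0 h and 66 and 75 at 1 h with 4HT, and 18 and 24 at 0 h and 137 and 112 at 1 h with EtOH. The edgeR adjusted p over all times was 4.6e-04 with 4HT and 4.3e-04 with EtOH. At 0 h mt-Tp reached the filter's level in 1 of 2 libraries with 4HT and 2 of 2 with EtOH. mt-Te, for glutamic acid, passed the filter only through later times and had 0 and 1 counts at 0 h and 10 and 14 at 1 h with 4HT (edgeR adjusted p = 0.017), too few at 0 h for a fold. It was not called without replicate 1 of 4HT at 0 h (edgeR adjusted p = 0.11) or without replicate 2 at 1 h (edgeR adjusted p = 0.053). mt-Tq (bases 3772 to 3842, minus strand), for glutamine, lies far from mt-Tp, mt-Te and mt-Nd6 and was not called. Its log2 change at 2 h was 1.59 ± 0.48 with 4HT and 1.57 ± 0.36 with EtOH.

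Plus-strand members next to mt-Nd6, mt-Te and mt-Tp were not called over release. mt-Cytb, between mt-Te and mt-Tt in position, had 230 and 316 CPM at 0 h, 320 and 186 CPM at 1 h and 519 and 576 CPM at 5 h with 4HT. With EtOH it had 517 and 757 CPM at 0 h, 532 and 533 CPM at 1 h and 779 and 1232 CPM at 5 h. Against 0 h this was -0.11 at 1 h and 1.005 ± 0.31 at 5 h in log2 with 4HT (edgeR adjusted p = 0.058 over all times), and -0.26 at 1 h and 0.66 ± 0.31 at 5 h with EtOH (edgeR adjusted p = 0.13). mt-Tt (bases 15289 to 15355), which ends where mt-Tp starts on the other strand, had 2.55 and 1.42 CPM at 0 h and 0.719 and 1.36 CPM at 5 h with 4HT, and 2.38 and 2.16 CPM at 0 h and 0.816 and 1.34 CPM at 5 h with EtOH, and was not called. mt-Nd5 (bases 11742 to 13565), whose end overlaps that of mt-Nd6, had 342 and 430 CPM at 0 h, 349 and 153 CPM at 1 h and 601 and 576 CPM at 5 h with 4HT. With EtOH it had 713 and 955 CPM at 0 h, 418 and 476 CPM at 1 h and 748 and 1131 CPM at 5 h. At 1 h mt-Nd5 was thus below both 0 h libraries with EtOH, while mt-Nd6 was above them. mt-Nd1 had 600 and 401 CPM at 1 h, against 331 and 528 CPM at 0 h with 4HT, and 934 and 1043 CPM at 1 h, against 904 and 1010 CPM at 0 h with EtOH, and overlapped its 0 h level in both arms. No source used here gives the strand setting of the counting. Without strand, reads from opposite strands of a gene cannot be told apart, so a minus-strand gene's count may include plus-strand transcripts that run through it and the reverse.

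**Figure D4:**
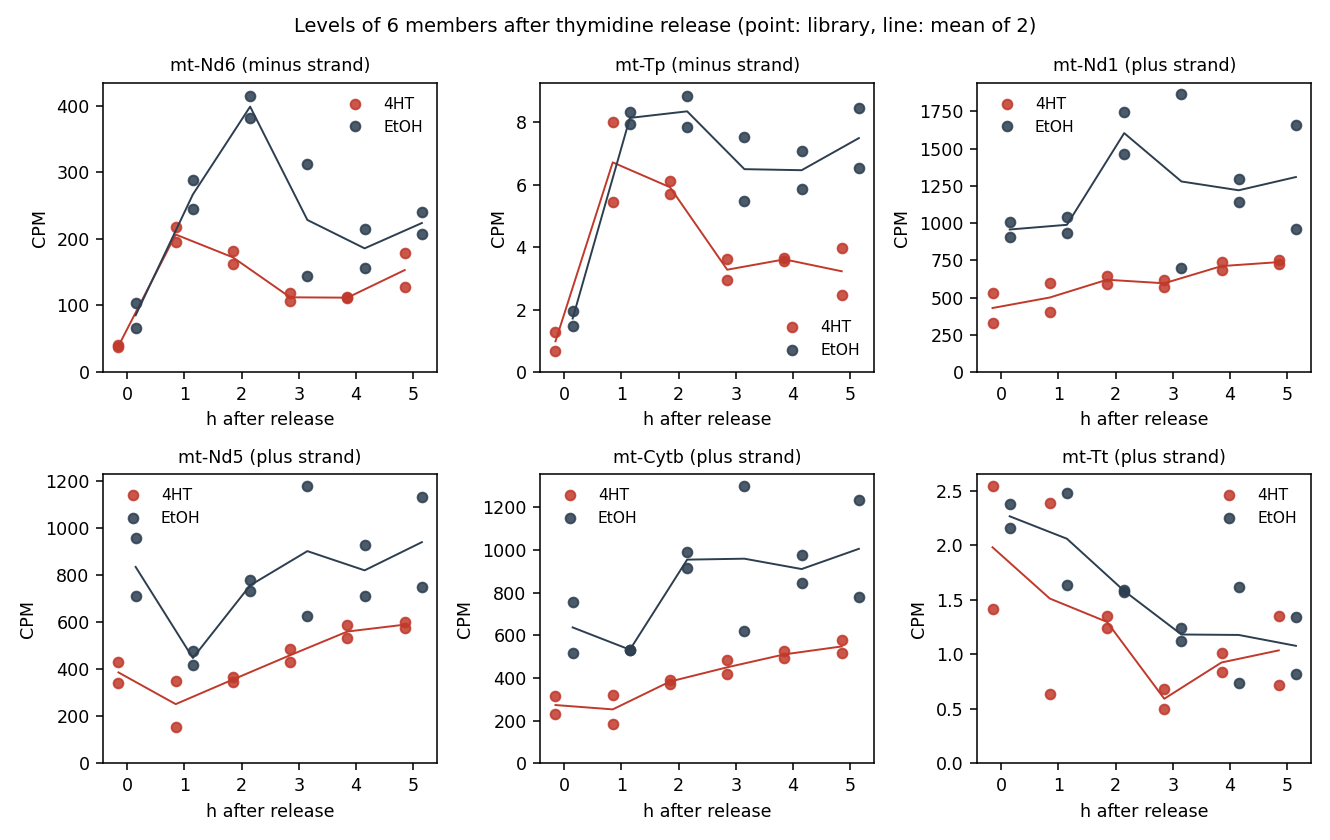
CPM (linear axes from 0) of 6 members at 0 to 5 h of release in synchronized FOXD3-iKO cells. Points are libraries and lines join the means of 2. The minus-strand genes mt-Nd6 and mt-Tp are lowest at 0 h in both arms, and mt-Nd5 has its lowest mean at 1 h. The highest mt-Tt library is at 0 h with 4HT and at a later time with EtOH.

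The ratio of the strands within each library, which no scaling between libraries can change, moved with release in both arms. There were 2.23 and 1.50 mt-Nd6 counts per 100 plus-strand mRNA counts at 0 h with 4HT, 7.88 and 14.8 at 1 h, 6.88 and 5.97 at 2 h, and 3.13 to 5.27 at 3 to 5 h. With EtOH there were 1.69 and 2.06 at 0 h, 6.61 and 7.37 at 1 h, 5.72 and 6.73 at 2 h, and 3.03 to 4.68 at 3 to 5 h. The 0 h libraries lay below all others and the 1 and 2 h libraries above all others in each arm. An exact permutation test over all 10395 ways to place the 12 libraries in 6 pairs gave p = 6.7e-04 with 4HT and p = 0.0026 with EtOH (adjusted p = 0.0084 with 4HT and 0.017 with EtOH over the 25 tests). Library 2 of 4HT at 1 h had the highest ratio and the lowest chrM share of the series, 0.152% of counts. The same ratio among tRNAs rested on fewer counts. There were 22.4 and 70.3 minus-strand per 100 plus-strand tRNA counts at 0 h and 115 and 376 at 1 h with 4HT. With EtOH there were 38.1 and 34.4 at 0 h and 119 and 93.6 at 1 h. The exact test gave p = 0.068 with 4HT and p = 0.042 with EtOH, both unadjusted and outside the 25 tests.

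**Figure D5:**
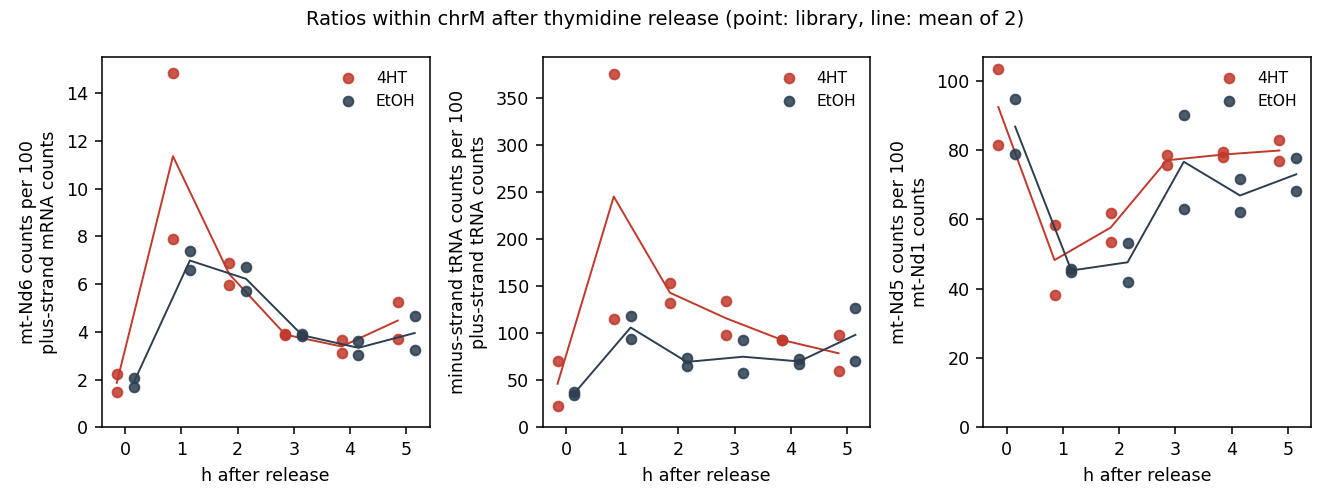
Ratios within each library by hour of release: mt-Nd6 per 100 plus-strand mRNA counts, minus-strand per 100 plus-strand tRNA counts, and mt-Nd5 per 100 mt-Nd1 counts (linear axes from 0). Points are libraries and lines join the means of 2. The first ratio is lowest at 0 h and highest at 1 and 2 h in both arms, and the last is lowest at 1 and 2 h.

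The classes shifted over release as well. tRNA counts were 3.81 and 3.14 per 1000 mRNA counts at 0 h with 4HT, 7.02 and 9.92 at 1 h and 4.04 and 4.66 at 5 h, and 4.20 and 2.99 at 0 h with EtOH, 7.04 and 7.14 at 1 h and 4.16 and 4.62 at 5 h. The exact test gave p = 0.0055 with 4HT and p = 0.0027 with EtOH (adjusted p = 0.024 with 4HT and 0.017 with EtOH). With 4HT there were 0.159 and 0.144 rRNA counts per 1000 mRNA counts at 2 h, against 0.233 and 0.348 at 0 h (exact p = 0.13 over all times). With EtOH there were 0.705 and 1.10 at 2 h, the highest of that arm, against 0.458 and 0.395 at 0 h (exact p = 0.0058 over all times, adjusted p = 0.024). The EtOH result was not past 0.05 without replicate 2 at 2 h (exact p = 0.065) or without replicate 2 at 1 h (exact p = 0.057). In the gene-wise fit with EtOH mt-Rnr1 and mt-Rnr2 were not called without replicate 2 at 2 h (edgeR adjusted p = 0.10 for mt-Rnr1 and 0.053 for mt-Rnr2), and mt-Rnr2 not without replicate 2 at 0 h (edgeR adjusted p = 0.060).

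A further ratio was chosen after its values were seen and is given as a description, with no test: mt-Nd5, near the end of the plus-strand transcript, against mt-Nd1, near its start. mt-Nd5 counts per 100 mt-Nd1 counts were 103 and 81.3 at 0 h with 4HT, 58.3 and 38.2 at 1 h, 61.8 and 53.4 at 2 h and 75.5 to 82.9 at 3 to 5 h. With EtOH they were 78.8 and 94.6 at 0 h, 44.8 and 45.6 at 1 h, 42.1 and 53.1 at 2 h and 62.2 to 90.1 at 3 to 5 h. The 1 and 2 h libraries lay below all others in each arm. In cycling FOXD3-iKO cells the same ratio was 32.5 to 45.5 with 4HT and 32.0 to 41.9 with EtOH. In OCT4-tetOff cells it was 31.1 and 31.5 at 16 h and 43.2 and 46.8 at 24 h with DOX, against 34.0 and 31.4 at 16 h and 30.1 and 34.9 at 24 h with H2O. Both DOX libraries of 24 h lay above all 4 H2O libraries.

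Nuclear genes that act on the mitochondrial genome were counted from a pair of lists. Of 40 genes of mitochondrial transcription and RNA processing 38 were tested, and of 16 genes of mitochondrial DNA copying and nucleotide supply 15. In cycling FOXD3-iKO cells none of either list was called at 8, 14 or 24 h with edgeR, and at 32 h 1 was: Ppargc1b, a coactivator of genes of mitochondrial biogenesis, which averaged 15.3 CPM with 4HT and 26.3 CPM with EtOH (-0.78 ± 0.12, edgeR adjusted p = 0.0010). At that time 9.47% of all genes tested were called. The counts of called list genes, here and in the other comparisons, were not tested against the share of all genes called, and nothing particular to the lists is read from them.

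With DOX in OCT4-tetOff cells 3 of 38 genes of transcription and RNA processing fell at 16 h and 2 of 15 copying genes, where 16.9% of all genes tested were called. The 3 were Ppargc1b, Grsf1 and Tbrg4. Grsf1, an RNA-binding protein of the granules where mitochondrial RNA is processed, averaged 86.2 CPM with DOX and 196 CPM with H2O (-1.19 ± 0.10, edgeR adjusted p = 6.3e-05). Polg, the catalytic subunit of the mitochondrial DNA polymerase, and Lonp1, a matrix protease, fell among the copying genes. At 24 h, where 36.9% of all genes tested were called, 11 genes of the first list fell and 1 rose, Top1mt, a mitochondrial topoisomerase. In the second list 5 fell and 1 rose, Tk2, a kinase of the mitochondrial nucleotide supply. Grsf1 averaged 61.9 CPM with DOX and 187 CPM with H2O at 24 h (-1.60 ± 0.10, edgeR adjusted p = 5.1e-06), and Ppargc1b averaged 2.97 CPM with DOX and 13.7 CPM with H2O (-2.21 ± 0.15). Polrmt, named here for its role and not for its rank, averaged 14.5 CPM with DOX and 17.8 CPM with H2O (-0.29 ± 0.10, edgeR adjusted p = 0.044). The median log2 fold change at 24 h was -0.21 over the first list and 0.07 over the second, beside -0.01 over all genes tested.

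In synchronized cells 12 genes of transcription and RNA processing fell with 4HT and 4 rose, and 3 copying genes fell and none rose, where 37% of all genes tested were called. Esrra, an orphan nuclear receptor that acts on genes of mitochondrial function, averaged 11.3 CPM with 4HT and 15.0 CPM with EtOH (-0.41 ± 0.06, edgeR adjusted p = 4.8e-05). Trmt10c, a subunit of mitochondrial RNase P, averaged 23.1 CPM with 4HT and 29.6 CPM with EtOH (-0.36 ± 0.06). Nrf1, a factor of nuclear respiratory genes, rose, with 414 CPM with 4HT and 333 CPM with EtOH (0.31 ± 0.05). The copying genes that fell were Rnaseh1, Mgme1 and Twnk, the mitochondrial helicase, the last with 16.5 CPM with 4HT and 19.5 CPM with EtOH (-0.23 ± 0.06, edgeR adjusted p = 0.0044). The median log2 fold change was -0.07 over the first list and -0.05 over the second, beside -0.01 over all genes tested. Over release 8 genes of the first list and 4 of the second were called with 4HT, and 6 of the first and 4 of the second with EtOH, beside 15.4% of all genes with 4HT and 19.4% with EtOH. Fastkd1, of a family that acts on mitochondrial RNA, had the smallest p of the first list in both arms. Between the FOXD3 and OCT4 responses at 24 h 4 genes of the first list differed, where 16.5% of all genes tested did, all with a higher value for FOXD3, led by Grsf1 with a difference of 1.62 ± 0.16 on the log2 scale (edgeR adjusted p = 1.5e-04).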

How the data were processed

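Counts per gene were taken as deposited by the authors in 3 tables, of cycling FOXD3-iKO cells, cycling OCT4-tetOff cells and synchronized FOXD3-iKO cells. Per the submitters' processing notes, STAR and featureCounts were used with mm10, with no version, strand setting or rule for reads with several matches given in the sources used here. The file headers give chromosome, start, end, strand and length of each gene, and the chrM genes were classed by symbol. Separate cultures for the 2 replicates of a group are not mentioned in the labels, and p-values then measure only the spread between these libraries, which may be technical.

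Each table was fitted whole with edgeR 4.0.16 in R 4.3.3 (TMM scaling, filterByExpr with a minimum count of 10, quasi-likelihood F test, Benjamini-Hochberg adjustment over all genes tested, calls at adjusted p under 0.05). SE was derived from each log2 fold change and its F statistic. The code was tested on simulated data with known changes. Ratios within libraries were compared by exact two-sided permutation tests, with 25 such tests adjusted together, 5 of them on a ratio chosen after its values were seen, whose p-values are not given. CPM per kb divides by the tables' gene length. DESeq2 1.42.0, other scalings, no filter, smaller sample sets, a replicate block and leaving out each library were the alternatives. Named chrM genes were all mRNAs and rRNAs, called members by smallest p, and the tRNAs with the highest counts, and named genes of the lists were those called with the smallest p, at most 4 per list and comparison, with exceptions named as such. The members and lists were chosen with earlier results of these data known. Figures were drawn with matplotlib 3.10.9.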

Additional observations from a re-analysis of the deposited data

How the results depend on the processing

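Of 534 values behind the comparisons under an alternative 482 stayed the same, 28 moved, 12 became weaker, 3 stronger and 9 reversed. A count of members called stayed the same if within a factor of 3/2 of the main count, and otherwise moved. A ratio stayed the same if it kept its side of the threshold and, between treatments, its direction. Of 793 values for single genes 758 kept their direction and side of the threshold, 28 became weaker, 3 stronger and 4 reversed. Without a filter on low counts the members called were 1 for FOXD3 at 14 h, 1 at 24 h, 1 for the difference between its times, 1 for OCT4 at 16 h, 13 at 24 h, 5 for OCT4 at 24 against 16 h, 2 for FOXD3 against OCT4, 15 over release with 4HT, 16 over release with EtOH and 4 for the difference between release times. This fit tests more members, those at or near 0 counts included. With only the compared groups in the fit they were 1 for OCT4 at 16 h, 2 at 24 h, 5 over release with 4HT and 2 with EtOH, and DESeq2 called 6 over release with 4HT. Replicate numbers are not shown to pair libraries: deviations of same-numbered libraries correlated at -0.11 to 0.42, with 6 of 12 pairs of groups over 0.1. A replicate block gave 6 calls for FOXD3 against OCT4, where there were 0 without it, 10 for OCT4 at 24 h, 4 over release with 4HT and 5 with EtOH.

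Among ratios within libraries, rRNA to mRNA in synchronized 4HT against EtOH cells was -0.60 (exact permutation p = 0.051) with mt-Nd4, mt-Nd5 and mt-Cytb alone as mRNA, and -0.61 (exact permutation p = 0.066) with labels exchanged within the replicate block. For DOX against H2O the tRNA to mRNA difference became -0.0031 with those mRNAs, and the strand difference -0.024 over tRNA genes. Over tRNA genes the strand difference was 0.48 in synchronized cells (exact permutation p = 0.045), and over release with 4HT the exact permutation p was 0.068. For mt-Nd6 total counts gave -0.063 at 14 h and 0.022 at 32 h of 4HT. The cause of each of these changes was not tested.

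Leaving out 1 library at a time, members called ranged over 0 to 12 for OCT4 at 24 h, 2 to 6 over release with 4HT, 2 to 10 with EtOH and 0 to 3 for FOXD3 against OCT4. The log2 difference in chrM share ranged over -0.31 to 0.012 for OCT4, rRNA to mRNA over -0.44 to -0.057 for cycling FOXD3 and -0.70 to -0.53 for synchronized cells, and tRNA to mRNA for OCT4 over -0.00051 to 0.12. The strand difference ranged over -0.024 to 0.093 for cycling FOXD3 and -0.050 to 0.14 for OCT4. Exact permutation p over release ranged over 0.023 to 0.23 for chrM share with 4HT and 0.0058 to 0.065 for rRNA to mRNA with EtOH. mt-Nd6 ranged over -0.068 to 0.20 for FOXD3 at 14 h and -0.033 to 0.27 for OCT4 at 16 h.

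Low counts limit the rRNA and tRNA values: the limit that 0 counts allow is 0.167 to 0.377 CPM in synchronized libraries.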
